A study of Mus musculus with 16 samples.

Results

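Genes of stratified epithelium were followed across the mouse tendons: the keratins Krt1, Krt5, Krt10, Krt14, Krt15 and Krt17 and the secreted epidermal proteins Dmkn and Sbsn. They were taken by name, and all 8 were found among the 41204 genes of the count table. The libraries came from 4 tendons of C57BL/6J mice, with 4 libraries each and 16 in all. The groups were the Supraspinatus tendon of the shoulder, the Patellar tendon of the knee, the Flexor tendon of the forepaw, which bends the digits, and the Achilles tendon of the heel. No treatment, age or sex is given in the labels, and all groups share the strain. The libraries carry mouse numbers, but whether a number is the same animal in each tendon is not stated, and p-values measure the spread between these libraries.

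Keratins are the intermediate filament proteins of epithelial cells, and each filament needs a type I and a type II partner. In the epidermis, Krt5 and Krt14 pair in the basal layer, and Krt1 and Krt10 pair in the layers above it. Krt15 marks basal cells and the stem cells of the hair follicle bulge, and Krt17 is a keratin of hair follicles and other skin appendages. Dmkn codes for dermokine and Sbsn for suprabasin, which are secreted by differentiating keratinocytes. Their genes lie side by side with Krtdap, which codes for a keratinocyte differentiation-associated protein. The comparison asks which of these genes were detected in which tendon and at what level.

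Total counts ranged from 86898889 to 107805065 in Supraspinatus, from 34559686 to 63235636 in Patellar, from 97242489 to 106573353 in Flexor and from 84414005 to 97180849 in Achilles libraries. Genes with rRNA-like sequence took 29.7% ± 12.1 (SD, n = 4) of Patellar counts and 2.17% to 4.18% of the counts of the other tendons. All 12 genes of a tendon list (Scx, Tnmd, Fmod, Col1a1 and others) exceeded a mean of 1 CPM in each tendon. Skeletal muscle genes summed to 142167 to 161551 CPM in Supraspinatus, 428 to 8883 in Patellar, 60251 to 93474 in Flexor and 40020 to 84070 in Achilles libraries. In such bulk samples, fewer cells of a type and less RNA per cell cannot be told apart.

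The members did not move together. Dmkn and Sbsn were high in Flexor, Krt17 and Krt15 were high in Patellar, Krt10 was near 5 or 6 CPM in every tendon, and Krt1, Krt5 and Krt14 were at or below about 1 CPM on average everywhere. CPM is the gene count relative to library size, after scaling by the trimmed mean of M values. Tests are edgeR quasi-likelihood tests over 23754 genes, with Benjamini-Hochberg adjustment and a threshold of 0.05, 4 libraries against 4. Krt1 did not pass the filter on low counts, and 7 members were tested. Over all 4 tendons, 6 of the 7 passed and Krt10 did not, where 64.9% of all genes passed.

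**Figure D1:**
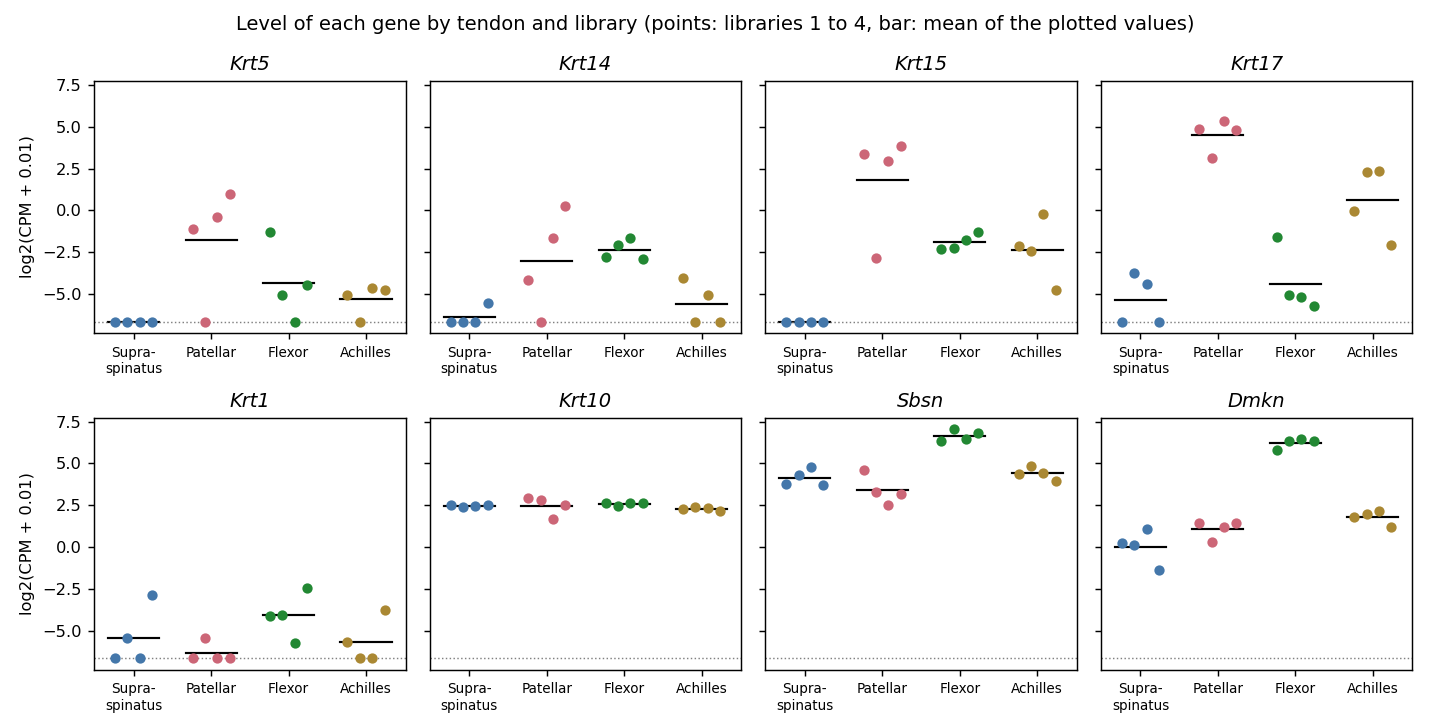
Level of each member as log2(CPM + 0.01) in each library of the 4 tendons; points are libraries 1 to 4 from left to right, the bar is the mean of the plotted values, and the dotted line marks 0 counts. Dmkn and Sbsn are highest in Flexor, Krt17 is highest in Patellar, Krt10 is level, and Krt1, Krt5 and Krt14 lie near the dotted line in most libraries.

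Dmkn was the member with the smallest p over all 4 tendons (adjusted p = 1.29e-08, edgeR), and it was a Flexor gene. It stood at 1.19, 1.10, 2.10 and 0.376 CPM in the Supraspinatus libraries and at 2.69, 1.21, 2.26 and 2.69 CPM in the Patellar libraries. The Flexor libraries had 56.4, 82.3, 89.9 and 79.7 CPM, and the Achilles libraries 3.53, 3.91, 4.42 and 2.28 CPM. Every Flexor library was over 10 times any other library, so Flexor did not overlap with any tendon. The counts behind these levels were 5830 to 10076 in Flexor and 33 to 442 in the other libraries. Dmkn was lower in Supraspinatus than in Flexor by a log2 fold change of -6.02 ± 0.44 (SE, adjusted p = 8.5e-08, edgeR). It was lower in Patellar than in Flexor by -5.14 ± 0.42 (adjusted p = 2.1e-07, edgeR) and higher in Flexor than in Achilles by 4.45 ± 0.40 (adjusted p = 5.06e-06, edgeR). It was also lower in Supraspinatus than in Achilles, at -1.57 ± 0.37 (adjusted p = 0.00419, edgeR). Patellar did not pass against Achilles (-0.69 ± 0.37, adjusted p = 0.152, edgeR), and Supraspinatus did not pass against Patellar (-0.88 ± 0.38, adjusted p = 0.0645, edgeR). The last was -1.12 with adjusted p = 0.0232 without Patellar replicate 2 and -1.28 with adjusted p = 0.0103 without Supraspinatus replicate 3. Adjusted p was 0.0481 with DESeq2 and 0.0351 with a filter at a mean of 1 CPM.

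Sbsn, the upstream neighbour of Dmkn, was also highest in Flexor, and in the other tendons it stood above Dmkn in CPM. It stood at 13.6, 19.8, 27.6 and 13.3 CPM in Supraspinatus and at 24.1, 9.70, 5.80 and 9.04 CPM in Patellar libraries. The Flexor libraries had 81.2, 132, 89.7 and 111 CPM, and the Achilles libraries 20.6, 29.2, 21.6 and 15.6 CPM. Flexor was apart from the other tendons, and the other tendons overlapped with each other. The log2 fold change was -2.48 ± 0.37 in Supraspinatus minus Flexor (adjusted p = 0.000108, edgeR) and -3.09 ± 0.38 in Patellar minus Flexor (adjusted p = 8.33e-06, edgeR). It was 2.25 ± 0.37 in Flexor minus Achilles (adjusted p = 0.000707, edgeR). Without Patellar replicate 1, the library with 24.1 CPM, the Patellar minus Flexor value was -3.70. Sbsn differed by -0.23 ± 0.35 in Supraspinatus minus Achilles, with a 95% interval from -0.98 to 0.52, and did not pass. Without the same Patellar library, Patellar fell below Achilles by 1.44 on the log2 scale (adjusted p = 0.00118, edgeR, against 0.0755 with it and 0.0393 with limma and voom), and Supraspinatus stood above Patellar by 1.19 (adjusted p = 0.00257, edgeR, against 0.163 with it).

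The annotation places Sbsn (ENSMUSG00000046056) on chromosome 7 from 30751471 to 30756134 and Dmkn (ENSMUSG00000060962) from 30763756 to 30781063, both on the plus strand of GRCm38 (mm10). Krtdap follows from 30787896 to 30791097. Krtdap was highest in Flexor, as its neighbours were, at 30.7, 29.3, 50.4 and 20.3 CPM. It stood at 0.0216 to 0.171 CPM in Supraspinatus, 0.456 to 2.80 in Patellar and 8.14 to 9.93 in Achilles libraries. Krtdap passed in all 6 comparisons of tendons, with -8.69 ± 0.63 in Supraspinatus minus Flexor (adjusted p = 8.88e-08, edgeR) and 1.84 ± 0.43 in Flexor minus Achilles (adjusted p = 0.00842, edgeR). Genes around the trio varied in pattern, and those given were chosen after their values were seen. Tmem147os (ENSMUSG00000097320), a noncoding antisense gene upstream of Sbsn, also had its highest mean in Flexor, at 4.11 ± 0.287 CPM, against 1.94 ± 0.224 in Supraspinatus, 2.57 ± 0.349 in Patellar and 2.81 ± 0.215 in Achilles (SD, n = 4). It passed in all 3 comparisons with Flexor, with 0.55 ± 0.18 in Flexor minus Achilles (adjusted p = 0.0424, edgeR). Tmem147, an endoplasmic reticulum protein gene upstream of Sbsn, was at 163 ± 17.6 CPM in Supraspinatus, 73.3 ± 8.67 in Patellar, 126 ± 10.8 in Flexor and 96.6 ± 19.4 in Achilles (SD, n = 4). Ffar2, a receptor for short-chain fatty acids downstream of Krtdap, was at 0.298 ± 0.222 CPM in Supraspinatus, 22.6 ± 12.1 in Patellar, 0.416 ± 0.221 in Flexor and 13.6 ± 3.41 in Achilles. A second noncoding gene of the name Tmem147os (ENSMUSG00000109224) overlaps Sbsn on the same strand, so the assignment of reads between them is uncertain.

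**Figure D2:**
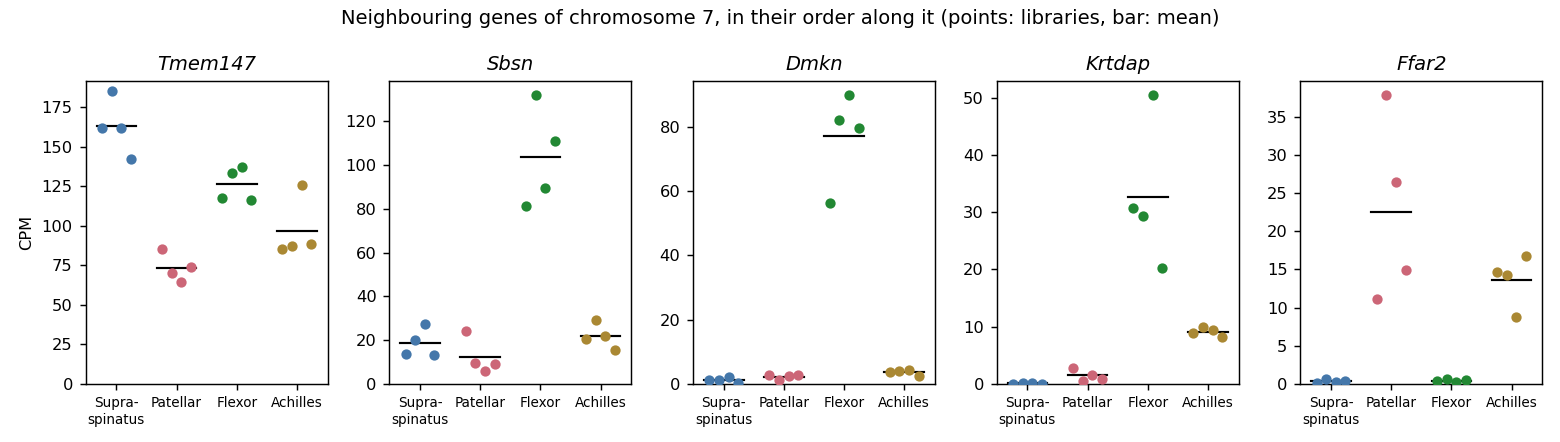
CPM of Sbsn, Dmkn, Krtdap and 2 genes near them on chromosome 7 in their order along it, with the other genes between them left out; points are libraries, the bar is their mean, and each panel has its own scale from 0. Sbsn, Dmkn and Krtdap share the high Flexor level, while Tmem147 is highest in Supraspinatus and Ffar2 in Patellar.

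The start regions of Sbsn, Dmkn and Krtdap are given because each gene was highest in Flexor, though they differed in pattern among the other tendons. RefSeq's table for GRCm38 held a start region for 5 of the 8 members, and each runs from 250 bases before the start to 50 after it, 5′ to 3′ on the gene's strand. Capitals mark matches to TGANTCA, which reads the same on both strands. It is a looser form of the site of AP-1 factors, whose middle letter is G or C.
Sbsn, chr7:30751221-30751520, plus strand: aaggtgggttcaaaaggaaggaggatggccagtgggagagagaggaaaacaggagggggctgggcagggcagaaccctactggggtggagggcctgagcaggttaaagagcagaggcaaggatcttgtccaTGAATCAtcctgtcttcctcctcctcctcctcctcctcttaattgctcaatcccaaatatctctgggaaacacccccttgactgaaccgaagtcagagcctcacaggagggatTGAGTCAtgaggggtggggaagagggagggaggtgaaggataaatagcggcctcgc
Dmkn, upstream start, chr7:30763506-30763805, plus strand: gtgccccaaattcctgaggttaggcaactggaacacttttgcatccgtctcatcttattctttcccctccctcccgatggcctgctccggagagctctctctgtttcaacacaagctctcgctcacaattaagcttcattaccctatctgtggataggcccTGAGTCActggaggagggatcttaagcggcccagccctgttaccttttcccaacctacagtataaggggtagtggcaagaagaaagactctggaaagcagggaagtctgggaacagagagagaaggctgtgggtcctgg
Dmkn, internal start, chr7:30776155-30776454, plus strand: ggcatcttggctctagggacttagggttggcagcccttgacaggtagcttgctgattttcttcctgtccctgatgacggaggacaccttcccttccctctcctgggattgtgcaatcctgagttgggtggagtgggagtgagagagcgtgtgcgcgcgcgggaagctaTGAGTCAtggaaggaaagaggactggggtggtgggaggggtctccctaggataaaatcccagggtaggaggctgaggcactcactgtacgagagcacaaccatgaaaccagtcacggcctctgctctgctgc
Krtdap, chr7:30787655-30787954, plus strand: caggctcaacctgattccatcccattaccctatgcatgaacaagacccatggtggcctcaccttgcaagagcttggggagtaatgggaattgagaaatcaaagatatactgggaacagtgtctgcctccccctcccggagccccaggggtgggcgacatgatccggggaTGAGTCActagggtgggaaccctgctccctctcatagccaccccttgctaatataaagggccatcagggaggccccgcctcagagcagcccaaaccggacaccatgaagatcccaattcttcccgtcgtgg
Each of the 4 stretches held at least 1 match, Sbsn 2, and TGANTCA with any middle letter occurred in 7.81% of all 32851 start regions of the same length. The upstream Sbsn match is TGAATCA, outside the AP-1 site, and the other matches printed are TGAGTCA. The start regions of Krt5, Krt10 and Krt14 in the same table held 0 matches, and that of Krt14 lies inside the gene as annotated here. These matches are letters in a window and no measurement of binding. Counts per gene do not separate the transcripts of the Dmkn starts.

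The proportion of the 2 neighbours changed between tendons. On the scale of CPM per kilobase of exon, the ratio of Sbsn to Dmkn was 6.90 to 21.4 in Supraspinatus, 1.55 to 5.41 in Patellar, 0.604 to 0.971 in Flexor and 2.96 to 4.51 in Achilles libraries. Dmkn was thus above Sbsn per length in every Flexor library and below it in every other library. The ratio of Dmkn to Krt10 on the same scale was 0.0637 to 0.373 in Supraspinatus, 0.168 to 0.674 in Patellar, 8.69 to 14.5 in Flexor and 0.489 to 0.837 in Achilles libraries. The Flexor ratios of Dmkn to Krt10 lay over 10 times above those of any other tendon.

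Genes with the most alike pattern were sought among 13007 tested genes. Likeness was the smallest root mean square difference of centred log2 CPM over the 16 libraries. The candidates, the same for each member, left out the members themselves, predicted genes and genes with a mean below 1 CPM. Members were thus not compared with each other. For Dmkn the most alike were Ppp1r1b, which codes for the phosphatase inhibitor DARPP-32 (1.07), Lbhd2 (1.14) and Hoxd10, a limb patterning gene (1.14). The spread of Dmkn itself was 2.50 (SD). For Sbsn they were Nt5e, the ectonucleotidase CD73 (0.608), Ehd3 (0.614) and Slc2a1, the glucose transporter GLUT1 (0.635), beside a spread of 1.35. Ppp1r1b averaged 3.04 CPM in Supraspinatus, 7.30 in Patellar, 97.8 in Flexor and 24.1 in Achilles. Nt5e averaged 61.8 CPM in Supraspinatus, 75.8 in Patellar, 345.8 in Flexor and 124 in Achilles. These patterns share the tendon differences of the whole table and carry no test.

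Krt17 was highest in Patellar and next highest in Achilles (ENSMUSG00000035557, chromosome 11, 100256217 to 100261029). It stood at 0, 0.0655, 0.0366 and 0 CPM in Supraspinatus libraries and at 28.7, 8.84, 39.8 and 28.1 CPM in Patellar libraries. The Flexor libraries had 0.329, 0.0200, 0.0178 and 0.00881 CPM, and the Achilles libraries 0.970, 4.95, 5.03 and 0.228 CPM. Every Patellar library was above every other library, and Achilles libraries split, with replicates 2 and 3 about 5 CPM and replicates 1 and 4 below 1 CPM. The log2 fold change was -10.02 ± 1.33 in Supraspinatus minus Patellar (adjusted p = 1.3e-05, edgeR) and 8.13 ± 1.16 in Patellar minus Flexor (adjusted p = 3.03e-05, edgeR). It was 3.24 ± 0.88 in Patellar minus Achilles (adjusted p = 0.00872, edgeR). It was -6.78 ± 1.27 in Supraspinatus minus Achilles (adjusted p = 0.000739, edgeR) and -4.90 ± 1.05 in Flexor minus Achilles (adjusted p = 0.00465, edgeR). Without Flexor replicate 1 the last was -7.37 and Patellar minus Flexor was 10.57. Without Supraspinatus replicate 2 the Supraspinatus values were -10.97 against Patellar and -7.75 against Achilles. Supraspinatus minus Flexor did not pass (-1.89 ± 1.54, adjusted p = 0.398, edgeR). Krt17 had 0, 5, 3 and 0 counts in Supraspinatus and 34, 2, 2 and 1 in Flexor libraries. The sizes of the fold changes with these tendons rest on few counts and are uncertain.

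The 3 genes with the pattern most alike to Krt17 over 16 libraries were Krt75, a keratin of the companion layer of the hair follicle (root mean square difference 0.827), Tchhl1, a relative of trichohyalin (1.03), and Prr9 (1.07), beside a spread of 4.04 for Krt17 itself. Krt75 stood at 20.9, 5.66, 25.7 and 16.1 CPM in Patellar libraries and at 0.570, 3.47, 4.48 and 0.310 CPM in Achilles libraries. It reached at most 0.0262 CPM in Supraspinatus and 0.107 CPM in Flexor. The same Patellar library, replicate 2, was lowest for Krt17 and Krt75, and the same Achilles libraries, replicates 2 and 3, were highest. Krt75 lies in the type II cluster on chromosome 15 and Krt17 in the type I cluster on chromosome 11. Krt75 passed with -10.32 ± 1.12 in Supraspinatus minus Patellar (adjusted p = 1.72e-06, edgeR) and 2.95 ± 0.70 in Patellar minus Achilles (adjusted p = 0.00374, edgeR). It had 4 counts over all Supraspinatus libraries, so the size of the first value is uncertain. Krt84, a hard keratin, was at 0 counts in Supraspinatus and averaged 2.10 CPM in Patellar, 0.00948 in Flexor and 0.241 in Achilles. Its level was below the cut of the search for alike genes, so it was not a candidate there.

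Krt15 was high in 3 of the 4 Patellar libraries (ENSMUSG00000054146, chromosome 11, 100131758 to 100135928). Patellar libraries had 10.2, 0.130, 7.67 and 14.6 CPM. All 4 Supraspinatus libraries had 0 counts, the Flexor libraries 0.193, 0.200, 0.285 and 0.405 CPM, and the Achilles libraries 0.220, 0.179, 0.839 and 0.0274 CPM. Patellar replicate 2 lay within the range of Flexor and Achilles libraries, below every Flexor library, so those tendons overlapped with Patellar. Krt15 was higher in Patellar than in Flexor, with a log2 fold change of 4.90 ± 1.11 (adjusted p = 0.00249, edgeR), and than in Achilles, with 4.69 ± 1.10 (adjusted p = 0.00461, edgeR). Without Achilles replicate 3 the value against Achilles was 5.83. With limma and voom these comparisons had adjusted p = 0.0793 and 0.0695. A count of 0 was taken to allow at most 3 counts over a tendon. On pooled counts, without the spread between libraries, Krt15 was at least 739-fold lower in Supraspinatus than in Patellar. It was at least 31.0-fold lower than in Flexor and at least 34.9-fold lower than in Achilles. With that spread, the 95% intervals of the log2 fold changes had upper limits of -8.37, -2.95 and -3.21 in turn (edgeR). These comparisons passed with adjusted p = 0.000125, 0.0197 and 0.0139 (edgeR). Without a filter on low counts, Supraspinatus minus Flexor had adjusted p = 0.0544. With limma and voom, adjusted p was 0.0112 against Patellar, 0.153 against Flexor and 0.193 against Achilles. Flexor minus Achilles did not pass (-0.21 ± 1.01, adjusted p = 0.919, edgeR). The genes with the most alike pattern over the 16 libraries were the metallothionein gene Mt3 (root mean square difference 1.78), the ephrin receptor gene Epha5 (1.81) and Mab21l2 (1.83), beside a spread of 3.10 for Krt15 itself.

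**Figure D3:**
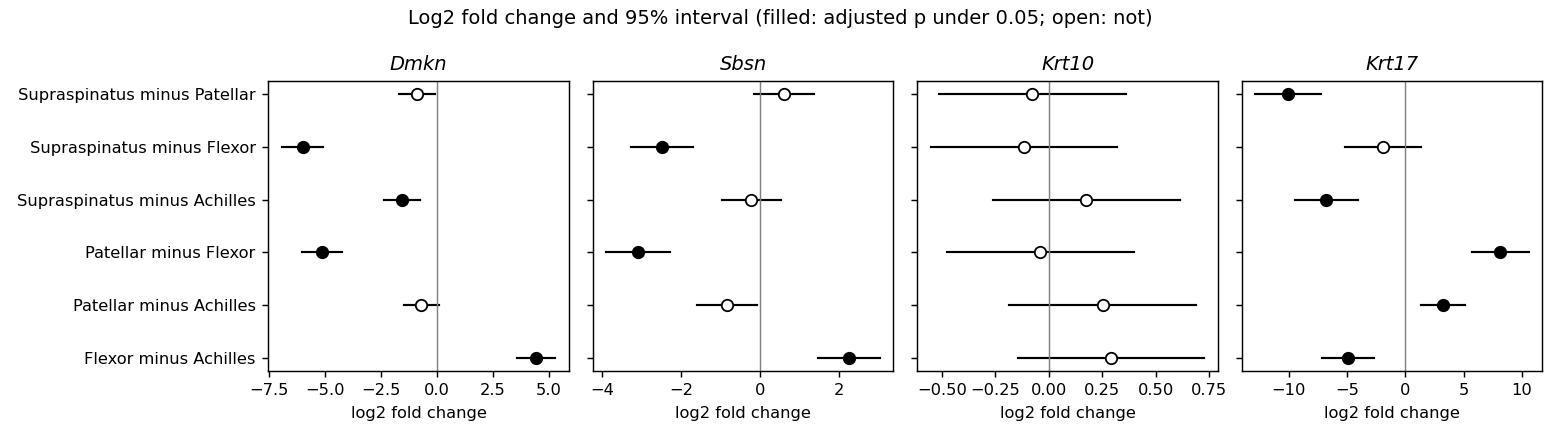
Log2 fold change of Dmkn, Sbsn, Krt10 and Krt17 in the 6 comparisons of tendons with the 95% interval; filled points have an adjusted p under 0.05 and open points do not, and each panel has its own scale. Dmkn and Sbsn separate Flexor from the rest, Krt17 separates Patellar from the rest, and the Krt10 points lie between -0.12 and 0.29.

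The basal pair Krt5 and Krt14 was near the floor of detection. Krt5 (ENSMUSG00000061527, chromosome 15, 101707070 to 101712898) had 0 counts in all Supraspinatus libraries. It had 20, 0, 22 and 72 counts in Patellar, 42, 2, 0 and 4 in Flexor and 2, 0, 3 and 3 in Achilles libraries. In CPM, the highest values were 1.94 in Patellar, 0.406 in Flexor and 0.0300 in Achilles libraries, and 1 library each carried most of the Patellar and Flexor counts. Krt5 passed in Patellar minus Achilles (5.22 ± 1.56, adjusted p = 0.0179, edgeR), and without Patellar replicate 4 it was 4.21 with adjusted p = 0.0567. With limma and voom it was 3.21 with adjusted p = 0.168. On pooled counts, without the spread between libraries, Krt5 was at least 69.0-fold lower in Supraspinatus than in Patellar. With that spread, the 95% interval of the log2 fold change had an upper limit of -4.34 (edgeR). This comparison passed (adjusted p = 0.00395, edgeR, and 0.0112 without Patellar replicate 4). Krt5 passed in no other comparison. Patellar minus Flexor, at 2.75 ± 1.32 (adjusted p = 0.0995, edgeR), was 5.25 with adjusted p = 0.0129 without Flexor replicate 1, and adjusted p was 0.0304 without Patellar replicate 2. Supraspinatus minus Flexor had adjusted p = 0.0667 (edgeR), 0.273 without Flexor replicate 1, 0.0474 without Flexor replicate 3, 0.0326 without Patellar replicate 2 and 0.00697 with DESeq2.

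Krt14 (ENSMUSG00000045545, chromosome 11, 100203162 to 100207548) had 0, 0, 0 and 1 counts in Supraspinatus and 2, 0, 9 and 44 in Patellar libraries. It had 14, 23, 35 and 14 counts in Flexor and 5, 0, 2 and 0 in Achilles libraries. Flexor was the tendon in which every library had more than 10 counts, at 0.200 ± 0.0886 CPM (SD, n = 4), against 0.0175 ± 0.0236 CPM in Achilles. Krt14 passed as lower in Supraspinatus than in Flexor (adjusted p = 0.0144, edgeR) and than in Patellar (adjusted p = 0.00263, edgeR, against 0.0559 with limma and voom). Fold changes against Supraspinatus rest on 1 count and are not given. It was higher in Patellar than in Achilles (4.33 ± 1.25, adjusted p = 0.0125, edgeR), but without Patellar replicate 4 the value was 2.43 with adjusted p = 0.139, and without Achilles replicate 1 it was 5.57. With limma and voom it was 2.66 with adjusted p = 0.148, and with the replicate number as a block 3.58 with adjusted p = 0.0694. Flexor minus Achilles was 3.43 ± 1.22 (adjusted p = 0.0678, edgeR), and adjusted p was 0.0484, 0.0272 and 0.0352 without Patellar replicates 1, 2 and 4 in turn. It was 0.0499 with DESeq2, 0.0411 with limma and voom, 0.00829 with the libraries of the pair alone and 0.00438 without the Patellar libraries. Without Achilles replicate 1 the value was 4.63 with adjusted p = 0.0651. Krt14, Krt16 and Krt17 are close paralogs, and the counting of reads shared between them is unknown here, so their split is uncertain. The library with 44 counts of Krt14, Patellar replicate 4, also had the most counts of Krt5 and Krt15 in its tendon. For Krt14, the 3 most alike genes over the 16 libraries were Snord118 (1.08), the interleukin decoy receptor gene Il1r2 (1.17) and Usp50 (1.17), beside a spread of 1.81.

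Krt1 and Krt10, partners in suprabasal epidermis, did not run in parallel in any tendon. Krt1 (ENSMUSG00000046834, chromosome 15, 101845426 to 101850794) had 0, 1, 0 and 11 counts in Supraspinatus, 0, 1, 0 and 0 in Patellar, 5, 5, 1 and 20 in Flexor and 1, 0, 0 and 7 in Achilles libraries. Krt10 (ENSMUSG00000019761, chromosome 11, 99385254 to 99389364) had between 93 and 708 counts in every library. Its levels were 5.82, 5.30, 5.44 and 5.69 CPM in Supraspinatus and 7.58, 6.94, 3.23 and 5.65 CPM in Patellar libraries. They were 6.26, 5.48, 6.14 and 6.24 CPM in Flexor and 4.93, 5.19, 5.08 and 4.50 CPM in Achilles libraries. The tendons lay within a narrow band, and the Patellar libraries spread the most. Where Krt1 was detected, Krt10 exceeded it 73.9-fold or more per kilobase of exon. Krt10 passed in none of the 6 comparisons and not over all tendons (adjusted p = 0.565, edgeR; unadjusted p = 0.523). The largest difference was 0.29 ± 0.21 in Flexor minus Achilles, with a 95% interval from -0.14 to 0.73, though each Flexor library was above each Achilles library. Without Patellar replicate 3, the library with 3.23 CPM, Patellar minus Achilles was 0.42 with adjusted p = 0.0268 (edgeR), against 0.25 with adjusted p = 0.356 with it. The 3 genes most alike in pattern were Lztfl1 (0.143), Tmed10 (0.156) and Cog5 (0.157), beside a spread of 0.276 for Krt10. An antisense gene, Gm11940, overlaps Krt10, and its reads cannot be told apart without a strand setting.

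Of 54 keratin genes in the table, 20 passed the filter and 15 exceeded a mean of 1 CPM in at least 1 tendon. The tendons had 4 such genes in Supraspinatus, 9 in Patellar, 8 in Flexor and 8 in Achilles, and 23 keratin genes in Supraspinatus, 14 in Patellar, 1 in Flexor and 14 in Achilles had 0 counts in all 4 libraries. Krt80, an epithelial keratin, was present in every library, with a median of 17.4 CPM in Supraspinatus, 22.4 in Patellar, 19.8 in Flexor and 13.3 in Achilles. It was higher in Patellar than in Achilles by 1.02 ± 0.21 on the log2 scale (adjusted p = 0.00116, edgeR) and lower in Supraspinatus than in Patellar (-0.62 ± 0.21, adjusted p = 0.0178, edgeR), and did not pass in the other 4 comparisons. Krt19, a keratin of simple epithelia, followed the Flexor members. It stood at 0.0865 to 0.144 CPM in Supraspinatus, 0 to 1.09 in Patellar, 5.51 to 11.4 in Flexor and 1.72 to 4.20 in Achilles libraries. Krt19 was lower in Supraspinatus than in Flexor by -6.13 ± 0.88 (adjusted p = 7.11e-05, edgeR) and did not pass in Flexor minus Achilles (1.36 ± 0.68, adjusted p = 0.199, edgeR).

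**Figure D4:**
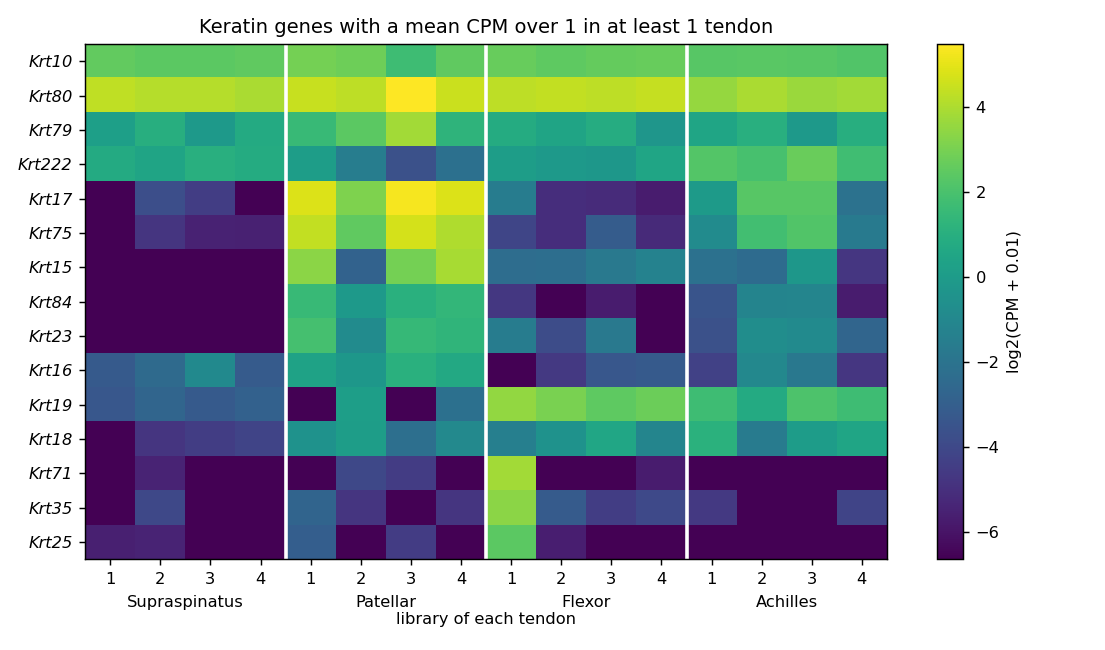
Level of the 15 keratin genes with a mean over 1 CPM in at least 1 tendon, as log2(CPM + 0.01), with 1 column per library and white lines between tendons. Krt10 and Krt80 are present in every library, Krt17, Krt75, Krt15, Krt84 and Krt23 are brightest in Patellar, Krt19 is brightest in Flexor, and Krt71, Krt35 and Krt25 are bright in Flexor replicate 1.

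Hair keratins appeared in 1 Flexor library. The 19 hair keratin genes summed to 43.0 CPM in Flexor replicate 1 and to 0.220 to 0.250 CPM in the other Flexor libraries. They summed to 0.0649 to 0.249 CPM in Supraspinatus, 1.54 to 6.18 in Patellar and 0.347 to 0.919 in Achilles libraries. Krt71, a keratin of the inner root sheath of hair, was at 13.9 CPM in Flexor replicate 1 and at most 0.00881 CPM in the other Flexor libraries, and Krt35, of the hair cortex, at 10.2 CPM and at most 0.100 CPM. The same library was highest in its tendon for Krt5 and Krt17 and lowest for Dmkn and Sbsn, with 56.4 and 81.2 CPM. Without it, Dmkn and Sbsn were higher in Flexor than in Achilles by 4.58 and 2.36 on the log2 scale, against 4.45 and 2.25 with it.

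Other markers of skin were read beside the members. Genes of the cornified layer differed in level. Cdsn, Krtdap, Ivl and Tchhl1 averaged above 5 CPM in at least 1 tendon. Some other skin genes, chosen after their values were seen, were near 0. Lor, which codes for loricrin, had at most 1.22 CPM in any library, and Flg, which codes for filaggrin, had 9 counts over all 16 libraries. The desmosomal cadherin gene Dsg1a had at most 0.232 CPM. Other epidermal junction genes were higher. Cdh1 averaged 0.0122 CPM in Supraspinatus, 0.844 in Patellar, 7.83 in Flexor and 6.51 in Achilles. Pkp1 averaged 6.82 CPM in Supraspinatus, 3.98 in Patellar, 6.19 in Flexor and 7.12 in Achilles. The basal gene Krt14 reached at most 1.18 CPM. Of 36 genes of a cornified layer list, 20 passed the filter, and the list summed to 4.48 to 7.44 CPM in Supraspinatus, 46.0 to 70.3 in Patellar, 27.8 to 56.2 in Flexor and 23.5 to 33.3 in Achilles libraries. In each tendon 6 to 9 of its genes had 0 counts. Cdsn, which codes for corneodesmosin, led it in Patellar at 28.7 ± 10.9 CPM and Krtdap led it in Flexor at 32.7 ± 12.7 CPM (SD, n = 4). Ivl, which codes for involucrin, averaged 6.28 ± 2.80 CPM in Patellar (SD, n = 4) and reached at most 0.0244 CPM in Supraspinatus, 0.0290 in Flexor and 1.52 in Achilles libraries. In Patellar minus Flexor, 8 of the 20 were higher and 3 lower, where, of all genes, 24.2% rose and 26.2% fell. In Supraspinatus minus Patellar, 2 were higher and 10 lower, where 26.4% and 26.8% of all genes were. In Flexor minus Achilles, 2 were higher and 4 lower, with a median log2 fold change of 0.0028 against 0.0004 over all genes tested. Genes that passed the filter through 1 tendon had to differ, so these counts support nothing about the list as a whole.

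**Figure D5:**
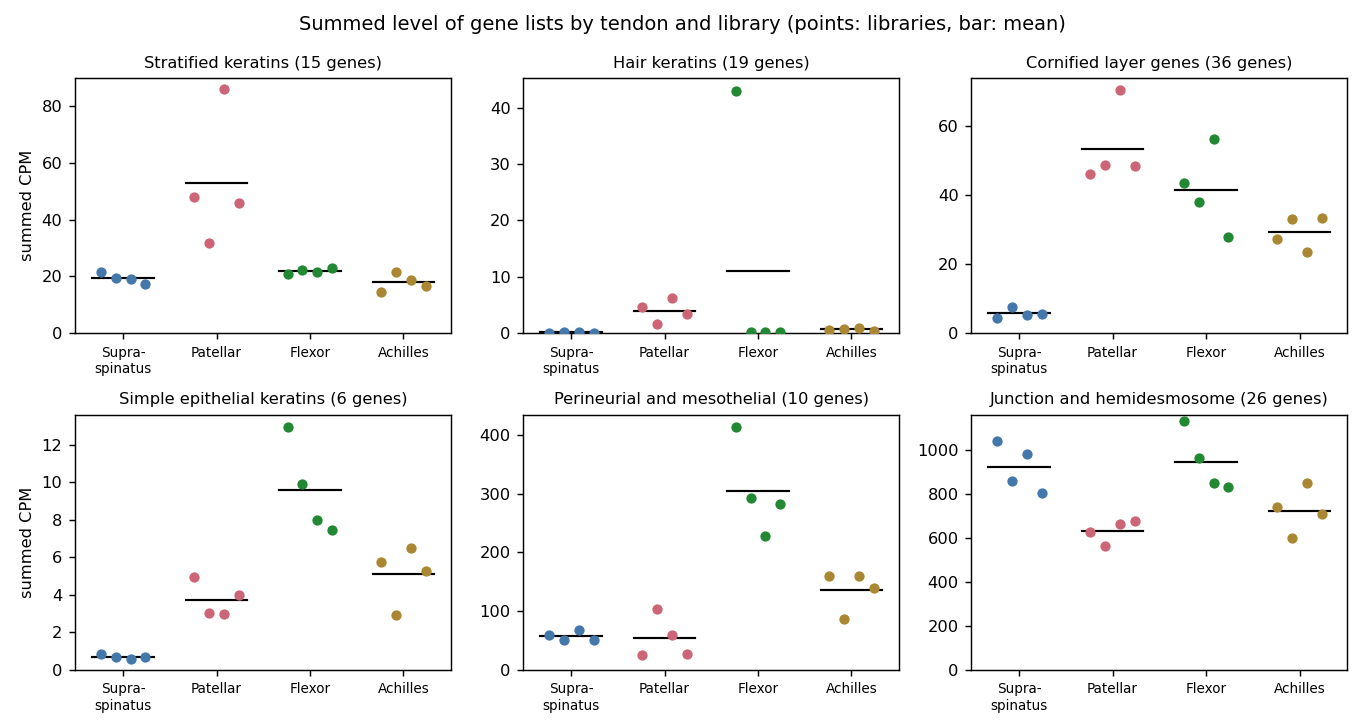
Summed CPM of 6 gene lists in each library of the 4 tendons; points are libraries, the bar is their mean, and each panel has its own scale from 0. Hair keratins reach 43.0 CPM in Flexor replicate 1 alone, cornified layer genes are lowest in Supraspinatus, and simple epithelial keratins and perineurial and mesothelial genes are highest in Flexor.

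Keratins of stratified epithelium outside the members, 15 genes with 5 tested, summed to 17.3 to 21.7 CPM in Supraspinatus, 31.7 to 86.3 in Patellar, 21.0 to 22.8 in Flexor and 14.6 to 21.6 in Achilles libraries. All 5 tested were lower in Supraspinatus than in Patellar, where 26.8% of all genes were, Krt79 by 2.10 ± 0.50 and Krt16 by 2.65 ± 0.86 among them. Here and in the lists below, genes that passed the filter through 1 tendon had to differ. Such counts support nothing about a list as a whole. Simple epithelial keratins, 6 genes with 5 tested, summed to 0.562 to 0.855 CPM in Supraspinatus, 2.95 to 4.92 in Patellar, 7.45 to 12.9 in Flexor and 2.92 to 6.49 in Achilles libraries. Junction and hemidesmosome genes, 26 with 19 tested, summed to 805 to 1038 CPM in Supraspinatus, 560 to 677 in Patellar, 829 to 1128 in Flexor and 600 to 849 in Achilles libraries, and Dst and Jup, which many tissues express, led them. Of their tested genes 1 was higher and 7 lower in Patellar minus Flexor, beside 24.2% and 26.2% of all genes. In Flexor minus Achilles 3 were higher and 1 lower, where 6.50% and 9.72% of all genes were. Keratinocyte transcription factors and regulators, 20 with 14 tested, summed to 18.5 to 24.5 CPM in Supraspinatus, 14.3 to 22.4 in Patellar, 22.3 to 30.4 in Flexor and 15.8 to 25.1 in Achilles libraries. Trp63, the p53 relative that defines basal keratinocytes and is also expressed in muscle, was highest in Supraspinatus at 12.9 ± 2.49 CPM, against 7.19 ± 3.13 in Patellar, 6.18 ± 0.590 in Flexor and 5.89 ± 0.404 in Achilles (SD, n = 4).

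Genes of perineurial and mesothelial cells, which form epithelium-like sheaths, had their highest sum in Flexor, as Dmkn and Sbsn did. Their 10 genes summed to 50.9 to 67.1 CPM in Supraspinatus, 25.9 to 103 in Patellar, 227 to 415 in Flexor and 85.9 to 160 in Achilles libraries. Itgb4, Slc2a1, Cldn1, Msln and Gpm6a of this list were detected in every library of all 4 tendons. Gpm6a had its highest mean in Achilles, at 21.0 CPM, against 17.2 in Flexor. It did not pass in Flexor minus Achilles (-0.28 ± 0.76, adjusted p = 0.853, edgeR). Of 8 tested, 1 was higher and 6 lower in Patellar minus Flexor, where 24.2% of all genes were higher and 26.2% lower. In Supraspinatus minus Flexor 0 were higher and 6 lower, where 14.7% and 12.4% of all genes were. In Flexor minus Achilles, 2 were higher and 1 lower, where 6.50% and 9.72% of all genes were, and Itgb4, Cldn1 and Krt19 did not pass (adjusted p = 0.251, 0.066 and 0.199, edgeR). Msln, which codes for mesothelin, was at 0.199 ± 0.148 CPM in Supraspinatus, 1.67 ± 1.04 in Patellar, 17.1 ± 5.25 in Flexor and 2.16 ± 1.45 in Achilles (SD, n = 4). Krt19 and Itgb4 are also in epithelial lists, and Slc2a1 was among the genes most like Sbsn. Genes of the list that passed the filter through 1 tendon had to differ, so its counts support nothing about the list as a whole. The part of these cells in the Dmkn and Sbsn levels was not tested.

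By comparison of tendons, 4 of 7 tested members were lower and 0 higher in Supraspinatus minus Patellar (Krt5, Krt14, Krt15 and Krt17), where 53.3% of all genes passed in either direction. In Supraspinatus minus Flexor 4 were lower and 0 higher (Krt14, Krt15, Dmkn and Sbsn), where 27.1% passed. In Supraspinatus minus Achilles 3 were lower and 0 higher (Krt15, Krt17 and Dmkn), where 33.6% passed, 16.7% lower and 16.9% higher. In Patellar minus Flexor 2 were higher (Krt15 and Krt17) and 2 lower (Dmkn and Sbsn), where 50.3% passed. In Patellar minus Achilles 4 were higher (Krt5, Krt14, Krt15 and Krt17) and 0 lower, where 38.4% passed, 17.4% higher and 21.1% lower. In Flexor minus Achilles 2 were higher (Dmkn and Sbsn) and 1 lower (Krt17), where 16.2% passed. These comparisons share tendons and are not independent. Members that passed the filter through 1 tendon had to differ, so the counts support nothing about the members as a set.

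The authors' deposited table held 5 of the members among its 13452 genes, namely Krt10, Krt15, Krt17, Dmkn and Sbsn. In the authors' deposited table, turned to the direction used here, Dmkn had 4.40 and Sbsn 2.20 in Flexor minus Achilles. Krt17 had 3.33 in Patellar minus Achilles in the authors' deposited table. Every member called here and listed there had the same sign in the authors' deposited table, and the value that differed in sign was Krt10 in Patellar minus Flexor, which passed in neither. Dmkn in Supraspinatus minus Patellar had -1.06 with a false discovery rate of 0.0262 in the authors' deposited table, and did not pass here.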

How the data were processed

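Total RNA of 16 libraries was sequenced. The authors deposited raw whole-number counts per gene. HISAT2, FastQC and edgeR with build mm10 are named per the submitters' processing notes. No source used here names the read counter, strand setting or versions. The authors' deposited table of log2 fold changes and p-values was used only for comparison. Members and gene lists were chosen with earlier results of these data known.

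Counts were filtered with filterByExpr, scaled with TMM and fitted with a robust quasi-likelihood model, 1 mean per tendon, in edgeR 4.0.16 (R 4.3.3). P-values are 2-sided and adjusted over 23754 genes. Standard errors were derived from each fold change and its F statistic. The alternatives used DESeq2 1.42.0, limma 3.58.1, other scaling, filters, samples and a mouse-number block. The fit was tested on simulated counts. Lengths and positions are GENCODE M21 (GRCm38). Named genes are all members, up to 4 genes per list by level and 4 by p, and the 3 genes most alike to each member, which are not reported here for Krt5. Genes outside this rule (Lor, Flg, Dsg1a, Pkp1 and the chromosome 7 neighbours) were chosen after their values were seen. Libraries of 1 tendon differed by more than counting noise. Plots were drawn with matplotlib 3.10.9.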

Additional observations from a re-analysis of the deposited data

Results flagged for a closer look

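Among 27 groups of 4 libraries with more than 3 counts in some library, 5 had 1 library far from the other 3, by Dixon's criterion on the gap to the nearest library. Chance flags about 1 in 20 groups where values are normally distributed. The rate for groups with few counts was not tested, so 5 flags are not shown to be an excess. Flexor replicate 1 was high for Krt5, at 0.406 CPM beside 0 to 0.0353 CPM in the other Flexor libraries. It was also high for Krt17, at 0.329 CPM beside 0.00881 to 0.0200 CPM, and it is the library with hair keratins at 43.0 CPM. Flexor replicate 2 was low for Krt10, at 5.48 CPM beside 6.14 to 6.26 CPM. Krt1 was high in Supraspinatus replicate 4, at 0.125 CPM beside 0 to 0.0131 CPM, and in Achilles replicate 4, at 0.0638 CPM beside 0 or 1 count in each of the others. The Krt1 values rest on 11 and 7 counts.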

How the results depend on the processing

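Over the member results, 1014 values under other settings kept their side of the threshold, 11 lost it, 21 gained it, and no called value changed sign. The Dmkn and Sbsn calls against Flexor and the Krt17 calls held under every setting run. The count of members past the threshold in Patellar minus Achilles was 4 and became 2 with a mean CPM of at least 1, with limma and voom and with the 8 libraries of the pair alone, and 2 to 5 with 1 library left out (2 without Patellar replicate 4). In Supraspinatus minus Patellar it was 4, and 2 with the 8 libraries alone. A filter on mean CPM removes Krt5 and Krt14 from the test. Counts of all genes moved over 1.5 times in Flexor minus Achilles, from 3853 to 6580 with the 8 libraries alone, 6960 without the Patellar libraries, 2106 when the log2 fold change also had to reach 1 in size, and 2520 to 5358 with 1 library left out (2520 and 2540 without Flexor replicates 2 and 3). With the 8 libraries alone Patellar minus Achilles had 5854 in place of 9131. The fold requirement gave 5391 there, 4775 in place of 7972 in Supraspinatus minus Achilles, 7688 in place of 11952 in Patellar minus Flexor, and 3709 in place of 6441 in Supraspinatus minus Flexor. The cause was not tested for the other settings. Same-numbered libraries correlated at -0.135 to 0.255, with a median of 0.017. Libraries of different tendon and number correlated at -0.215 to 0.144, with a median of -0.007. Of 16 libraries, 5 correlated best with their own number in another tendon. The numbers were not taken as pairs, though these values do not show whether the animals differed. With the replicate block, Patellar minus Achilles had 3 members and 8510 genes, with Krt14 at adjusted p = 0.0694 (edgeR), and Supraspinatus minus Patellar had 5 members, with Dmkn at 0.0404 (edgeR). The smallest libraries, of Patellar, limit the low keratins, since 3 counts over the 4 Patellar libraries are 0.0161 CPM.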

Other observations

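Genes of skin appendages and of other cell types gave these summed levels over libraries. Melanocyte genes (8) had summed medians of 17.7 CPM in Supraspinatus, 20.8 in Patellar, 25.4 in Flexor and 23.2 in Achilles, most of it Mitf, which other cells express. Sweat gland genes (10) summed to 112 to 212 CPM in Supraspinatus, 110 to 212 in Patellar, 62.1 to 104 in Flexor and 46.9 to 86.6 in Achilles, nearly all of it the chloride channel gene Ano1. Sebaceous gland genes (9), led by the fat cell factor Pparg except in Flexor, where Fa2h led, summed to 7.73 to 16.7 CPM in Supraspinatus, 42.4 to 130 in Patellar, 17.8 to 33.7 in Flexor and 74.9 to 128 in Achilles. Merkel and Langerhans cell genes (7) summed to 11.6 to 20.9 CPM in Supraspinatus and 107 to 146 in Patellar. They summed to 8.36 to 9.94 CPM in Flexor and 38.2 to 87.2 in Achilles. Most of it was Piezo2 and Cd1d1, which averaged 74.8 and 49.9 CPM in Patellar. Isl1 averaged 0.573 CPM in Patellar and 10.1 in Achilles, and Epcam averaged at most 0.195 CPM in any tendon.

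Adipocyte genes (10) summed to 806 to 2431 CPM in Supraspinatus, 8841 to 20760 in Patellar, 717 to 1178 in Flexor and 6317 to 11247 in Achilles. Schwann cell genes (9) summed to 479 to 561 CPM in Supraspinatus, 535 to 812 in Patellar, 1900 to 5101 in Flexor and 888 to 6075 in Achilles. Synovial lining genes (7) summed to 1057 to 1554 CPM in Supraspinatus, 1357 to 2207 in Patellar, 2373 to 3110 in Flexor and 2664 to 4661 in Achilles. Endothelial genes (8) summed to 316 to 348 CPM in Supraspinatus, 180 to 575 in Patellar, 403 to 564 in Flexor and 632 to 850 in Achilles, and macrophage genes (8) to 288 to 770 CPM in Supraspinatus, 309 to 688 in Patellar, 395 to 844 in Flexor and 220 to 636 in Achilles. Patellar replicate 2, the Patellar library with the lowest Krt15 and Krt17, had the highest adipocyte sum of its tendon, 20760 CPM, and the lowest skeletal muscle sum, 428 CPM. It was also the deepest library of its tendon, with 63235636 counts. Its share of genes with rRNA-like sequence was 13.2%, against 29.7%, 42.0% and 33.9% in Patellar replicates 1, 3 and 4. These differences cannot be told apart here.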
